A study of Ceratopteris richardii with 15 samples.

Results

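In sporophytes of the fern Ceratopteris richardii, the change in gene expression between an organ's growing tip and the older part behind it was compared between root and leaf. The quantity is an interaction, (root tip minus root) minus (leaf tip minus leaf), computed per gene on log2(TPM + 1), where TPM is transcript abundance corrected for gene length and library total. A positive interaction means that the tip stood higher relative to its organ in root than in leaf, and a gene called in that direction is termed root-biased below. A gene called in the negative direction is termed leaf-biased. The genes described are those with at least 1 TPM in 3 or more of the 12 libraries of root tip, root, leaf tip and leaf. Genes listed almost only in root, with every library of the other tissues under 10% of the root mean, were left out. This gave 36717 genes of 88641 in the table, after 908 root-only genes were removed from the 37625 that were tested. At the edge of the expression threshold, 3751 of the genes described reached 1 TPM in exactly 3 libraries, and 2839 genes outside it did so in exactly 2. At the edge of the root-only threshold, the highest library outside root stood at 10.03% of the root mean for the nearest gene kept and at 9.98% for the nearest gene left out.

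All libraries came from wild type RNWT1 plants grown from spores on medium and sampled at 50 days. Root tip and the remaining root had 3 libraries each, as had leaf tip and the remaining leaf, and 3 shoot tip libraries entered no contrast. The labels do not state whether replicates are different plants, so the p-values measure the spread between these libraries, which may be technical. Sequencing depth is unknown, because the deposited values are TPM.

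Fern organs grow from apical cells at their tips, which cut off the cells that later divide, enlarge and differentiate behind them. The root apical cell is covered by a root cap and divides within a small zone. Fern leaves also keep an apical region for a time and unroll from it as croziers. Dividing and young cells therefore lie toward the tip, and differentiated cells behind it. In such bulk samples fewer cells of a type and less RNA per cell cannot be told apart.

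The identifiers have the form of assembled transcript clusters and are paired with no names. None of them matched the 36816 genes of the reference gene table for the species (assembly C.richardii_v2), a count of 0. Genes are therefore given by identifier, without function or position, and the tissue labels were not checked against marker genes. Root replicate 3 stood apart. On log2(TPM + 1) it correlated with the other root libraries across genes down to r = 0.971, whereas the lowest value within root tip, leaf tip and leaf was 0.993. The numbers of called and of opposite genes, and some of the named genes, are given with and without it. Other values are given only with it. Of the 36717 genes, 1606 were listed at 0 in all libraries of at least 1 of the 4 tissues.

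The tip effect differed between root and leaf for 13972 genes, or 38.1% of those described, at a Benjamini-Hochberg adjusted p under 0.05 by limma and an interaction of at least 1 in either direction. Over every tested gene, root-only genes included, the share was 39.5%. There were 5556 root-biased genes (14.8% of all tested genes had this direction) and 8416 leaf-biased genes (24.8% of all tested genes). The sign of the interaction was the same in each of the 81 ways to take 1 library per tissue for 13651 of the called genes (97.7%). The same was true of 68.5% of all genes described. The median SE of a called interaction was 0.16. Without root replicate 3 there were 5647 root-biased and 9018 leaf-biased genes. With a pseudocount of 5 the counts were 3326 and 3387.

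**Figure D1:**
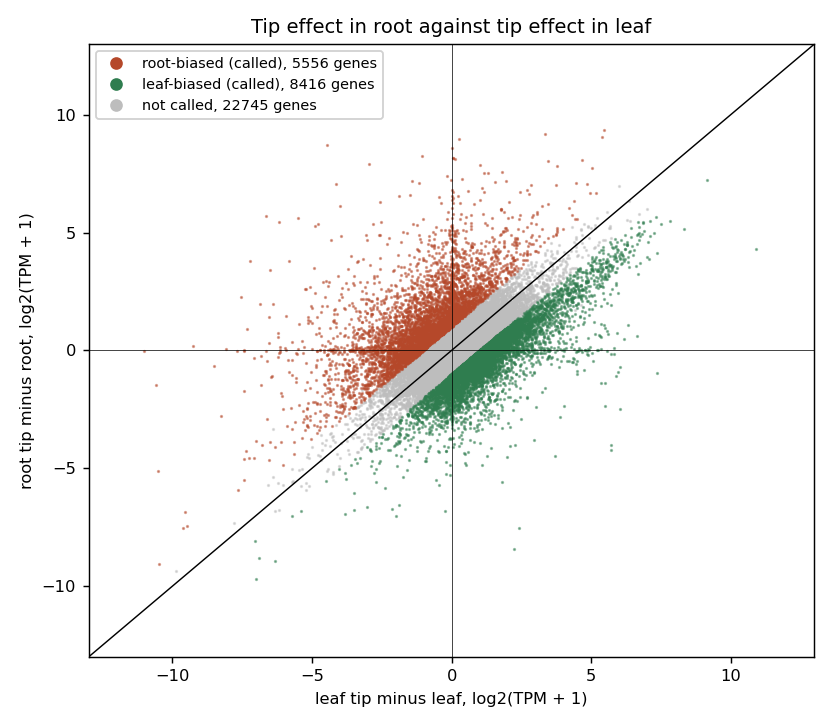
Each point is 1 of 36717 genes, with leaf tip minus leaf on the horizontal axis and root tip minus root on the vertical axis, both as log2(TPM + 1). Root-biased genes (5556) lie above the line of equal tip effects and leaf-biased genes (8416) below it, and the root-biased cloud reaches farther from the line.

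Which direction was more frequent depended on the scaling of the libraries, and interactions of at least 10-fold were more often root-biased under each scaling. The median interaction over all genes described was -0.32 as deposited, 0.006 with median-ratio scaling and -0.088 with quantile normalization. Root-biased genes made up 39.8% of the calls as deposited, 56.8% with median-ratio scaling and 52.7% with quantile normalization. With the same sign under all 3 scalings, 5517 genes were root-biased and 5318 leaf-biased. Among interactions of at least 10-fold, 821 were root-biased and 299 leaf-biased as deposited. The counts were 1076 and 220 under median-ratio scaling, 945 and 244 under quantile normalization, 1832 and 1434 with a pseudocount of 0.1, and 850 and 312 without root replicate 3. At 4-fold or more, 2345 were root-biased and 1718 leaf-biased as deposited, and this turned to 3769 and 4878 with a pseudocount of 0.1. At 100-fold or more there were 79 root-biased and 16 leaf-biased genes.

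Part of this imbalance lies in how the genes were chosen. Of the 908 root-only genes left out, 897 were leaf-biased, because a gene high in root alone has a negative interaction. With them kept, 542 genes were leaf-biased by at least 10-fold against the 821 root-biased ones. At 4-fold or more the directions were then nearly equal, with 2346 root-biased and 2325 leaf-biased genes. The same selection had not been applied to leaf. When the 211 genes listed almost only in leaf were left out too, a comparison added after the data were seen, 713 genes were root-biased and 299 leaf-biased by at least 10-fold.

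The direction of the calls also went with expression level. Among genes with a mean under 1 TPM over the 4 tissues, 24.8% of the called interactions were root-biased. Genes this low entered by reaching 1 TPM in at least 3 libraries, which can be those of 1 tissue. That tissue then bears on the sign, so the shares at low levels describe these genes and are no test. At 3 to 10 TPM the share was 39.5%, at 30 to 100 TPM it was 57.3%, and at 100 TPM or more it was 71.4%. The lowest and highest of these levels had 35.7% and 85.4% under median-ratio scaling, and 40.1% and 74.2% under quantile normalization. With root-only genes kept, the lowest level had 21.3% and the highest 68.5%. With a pseudocount of 5, where no gene under 1 TPM was called, the share was 50.4% at 1 to 3 TPM, 40.8% at 3 to 10 TPM and 71.2% at 100 TPM or more. As deposited, the share of genes called lay between 35.4% at 30 to 100 TPM and 40.9% at 1 to 3 TPM.

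**Figure D2:**
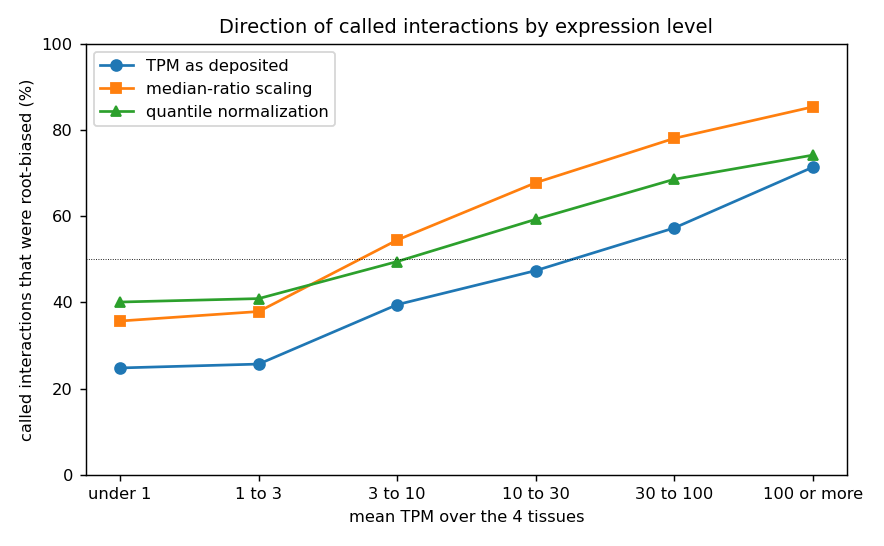
Share of called interactions that were root-biased (percent) against the mean TPM of the gene over the 4 tissues, for 3 scalings of the libraries. The lines climb from 24.8% to 71.4% as deposited, from 35.7% to 85.4% under median-ratio scaling and from 40.1% to 74.2% under quantile normalization.

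The root-biased genes held much of the leaf transcriptome. The contrast itself favours genes high in leaf, so the summed levels describe the genes and are no test. Their summed TPM came to 25.3% ± 0.13 of the root tip total and 14.8% ± 0.11 of the root total, and to 18.8% ± 0.048 of the leaf tip total and 48% ± 0.35 of the leaf total (SD, n = 3 each). In leaf, 678 root-biased genes at 100 TPM or more held 39.2% ± 0.41 of the total, and the 10 most abundant of them held 12.1% ± 0.33. Leaf-biased genes held 10.1% ± 0.029 of the root tip total and 16.4% ± 0.12 of the root total, and 17.8% ± 0.024 of the leaf tip total and 5.6% ± 0.048 of the leaf total (SD, n = 3 each). At 100 TPM or more there were 150 leaf-biased genes in root tip, against 268 in root, and 318 in leaf tip, against 51 in leaf. These shares and counts leave out the root-only genes, 897 of 908 of which were leaf-biased. All genes described made up only 89.1% ± 0.36 of root TPM (SD, n = 3). For every other tissue of the contrast this coverage was 98.7% or more. The leaf-biased share of root is thus lower than with root-only genes kept, by an amount not computed.

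Called interactions were then divided by whether the tip comparison itself was called in each organ, with the same thresholds. Of the genes described, 7390 were called above root in root tip and 4213 below it, where 19.6% and 13.6% of all tested genes were called. Leaf tip exceeded leaf in 9888 and fell below it in 4352, where 26.3% and 11.7% of all tested genes were called. These counts are as deposited and are not given under the other scalings. As deposited, the median over all genes described was 0.41 for leaf tip minus leaf and 0.14 for root tip minus root. As deposited, 1961 root-biased genes (35.3%) were higher in root tip and not called in leaf, and 1744 (31.4%) fell in leaf tip and were not called in root. Among leaf-biased genes, 3301 (39.2%) were higher in leaf tip alone and 1857 (22.1%) were lower in root tip alone. The order of these patterns turned with the scaling. Among root-biased genes, 1985 were called in root alone and 2927 in leaf alone under median-ratio scaling, and 1907 and 2468 under quantile normalization. The counts were nearly equal with a pseudocount of 5 (1163 and 1181) and when genes averaging under 5 TPM were dropped (1174 and 1175). Among leaf-biased genes, 1855 were called in root alone and 1462 in leaf alone under median-ratio scaling, and 1869 and 1709 under quantile normalization.

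**Figure D3:**
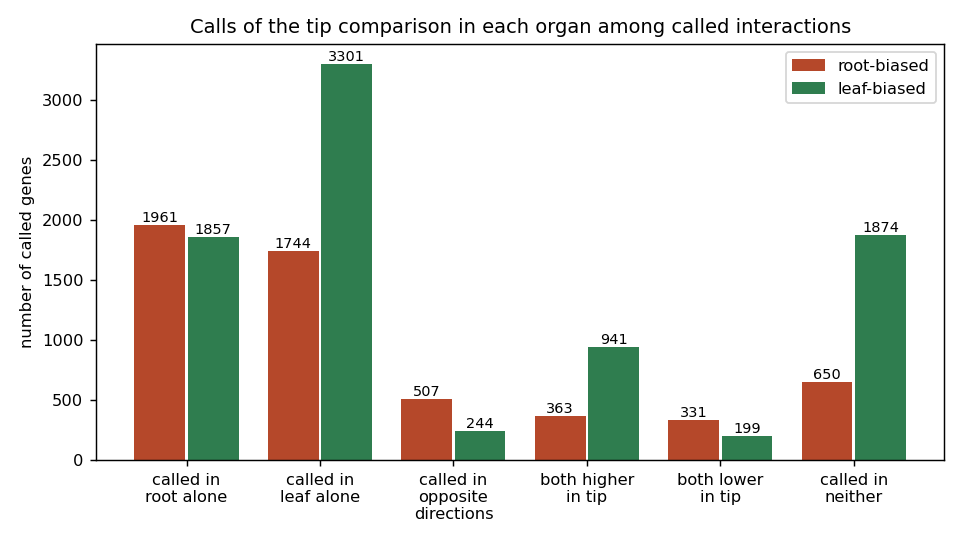
Number of root-biased and leaf-biased genes by the calls of root tip minus root and leaf tip minus leaf. The tallest bar, as deposited, is the 3301 leaf-biased genes called in leaf alone (1462 under median-ratio scaling), and the opposite pattern has 507 root-biased and 244 leaf-biased genes.

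In 751 genes the tips moved in opposite directions, and of all genes described the highest and the lowest interaction on log2(TPM + 1) belonged to this pattern. In 507 of them root tip was higher than root while leaf tip was lower than leaf, with a median interaction of 3.77. The libraries of tip and organ did not overlap in either organ for all 507, where 7.09% of all tested genes had this arrangement without overlap. In the other 244, root tip was lower and leaf tip higher, with a median of -3.03. Of these 240 had no overlap in either organ, where 9.53% of all tested genes had this arrangement. In both groups the tip comparisons were called from these same libraries. This favours the lack of overlap, which is therefore no test. The groups held 713 and 127 genes under median-ratio scaling and 634 and 150 under quantile normalization. With a pseudocount of 0.1 their order turned, to 835 and 1075 genes. Without root replicate 3 the groups held 529 and 319 genes. Both tip effects were at least 4-fold in 94 genes of the first group and 20 of the second.

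LA_TRINITY_DN18128_c0_g1 had the highest interaction of the genes described with the pseudocount of 1. With a pseudocount of 0.1 it had 13.87, below the 15.49 of LE_TRINITY_DN2946_c0_g1. Its root tip libraries held 982.43, 1005.24 and 1007.31 TPM, against 0.91, 1.34 and 2.12 TPM in root. In leaf tip it had 169.97, 172.1 and 174.14 TPM, against 3765.54, 3830.53 and 3891.58 TPM in leaf. The gene was thus abundant at the tip of one organ and in the mature part of the other, with no overlap between tip and organ. The interaction was 13.17 (SE 0.18, limma adjusted p = 5.6e-13), made of 8.7 in root and -4.47 in leaf. Shoot tip had 20.98 ± 0.476 TPM (SD, n = 3), below both root tip and leaf tip.

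RT_TRINITY_DN23089_c0_g1 showed the same arrangement at a lower level. Root tip had 409.38, 406.91 and 408.74 TPM, against 5.62, 5.58 and 10 TPM in root. Leaf tip had 0.29, 0.88 and 0.87 TPM, against 169.71, 162.7 and 163.79 TPM in leaf. Its interaction was 12.36 (SE 0.27, limma adjusted p = 1.3e-11), with root tip and leaf both far above root and leaf tip. LE_TRINITY_DN2946_c0_g1 had 55.18, 57.11 and 57.14 TPM in root tip, against 0.32, 0.23 and 0.47 TPM in root. Its leaf tip libraries held 0.09, 0.09 and 0.26 TPM, against 80.63, 82.35 and 82.52 TPM in leaf. The interaction was 11.6 (SE 0.11, limma adjusted p = 3.8e-14), and the gene was near 0 in root and leaf tip alike.

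The reverse arrangement was led by RO_TRINITY_DN1753_c0_g1, with 0.08, 0.18 and 0.09 TPM in root tip, against 328.45, 328 and 521.47 TPM in root. Leaf tip had 16.61, 16.81 and 18.05 TPM, against 3.19, 2.94 and 2.59 TPM in leaf. Most of its interaction of -10.65 (SE 0.21, limma adjusted p = 7.6e-12) came from root, where the difference was -8.43, against 2.22 in leaf. LA_TRINITY_DN4069_c0_g1 had 26.9, 28.85 and 27.27 TPM in root tip, against 872.15, 883.2 and 204.68 TPM in root. Leaf tip had 66.82, 64.91 and 66.65 TPM, against 0.3, 0.31 and 0.2 TPM in leaf. Root replicate 3 was the low root library here, though still above every root tip library. The interaction was -9.96 (SE 0.6, limma adjusted p = 5.5e-08), and -10.66 without root replicate 3.

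In RO_TRINITY_DN7195_c0_g1 root replicate 3 was the high root library. Root tip had 0.37, 0 and 0.15 TPM, against 105.79, 101.02 and 904.45 TPM in root. Leaf tip had 8.61, 6.74 and 8.07 TPM, against 0.47, 0.95 and 0.58 TPM in leaf. The interaction was -9.93 (SE 0.91, limma adjusted p = 1.9e-06). Without root replicate 3 it was -8.89 (limma adjusted p = 4e-11), so the call did not need that library. Shoot tip, at 252.5 ± 3.96 TPM (SD, n = 3), was far above root tip and leaf tip.

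**Figure D4:**
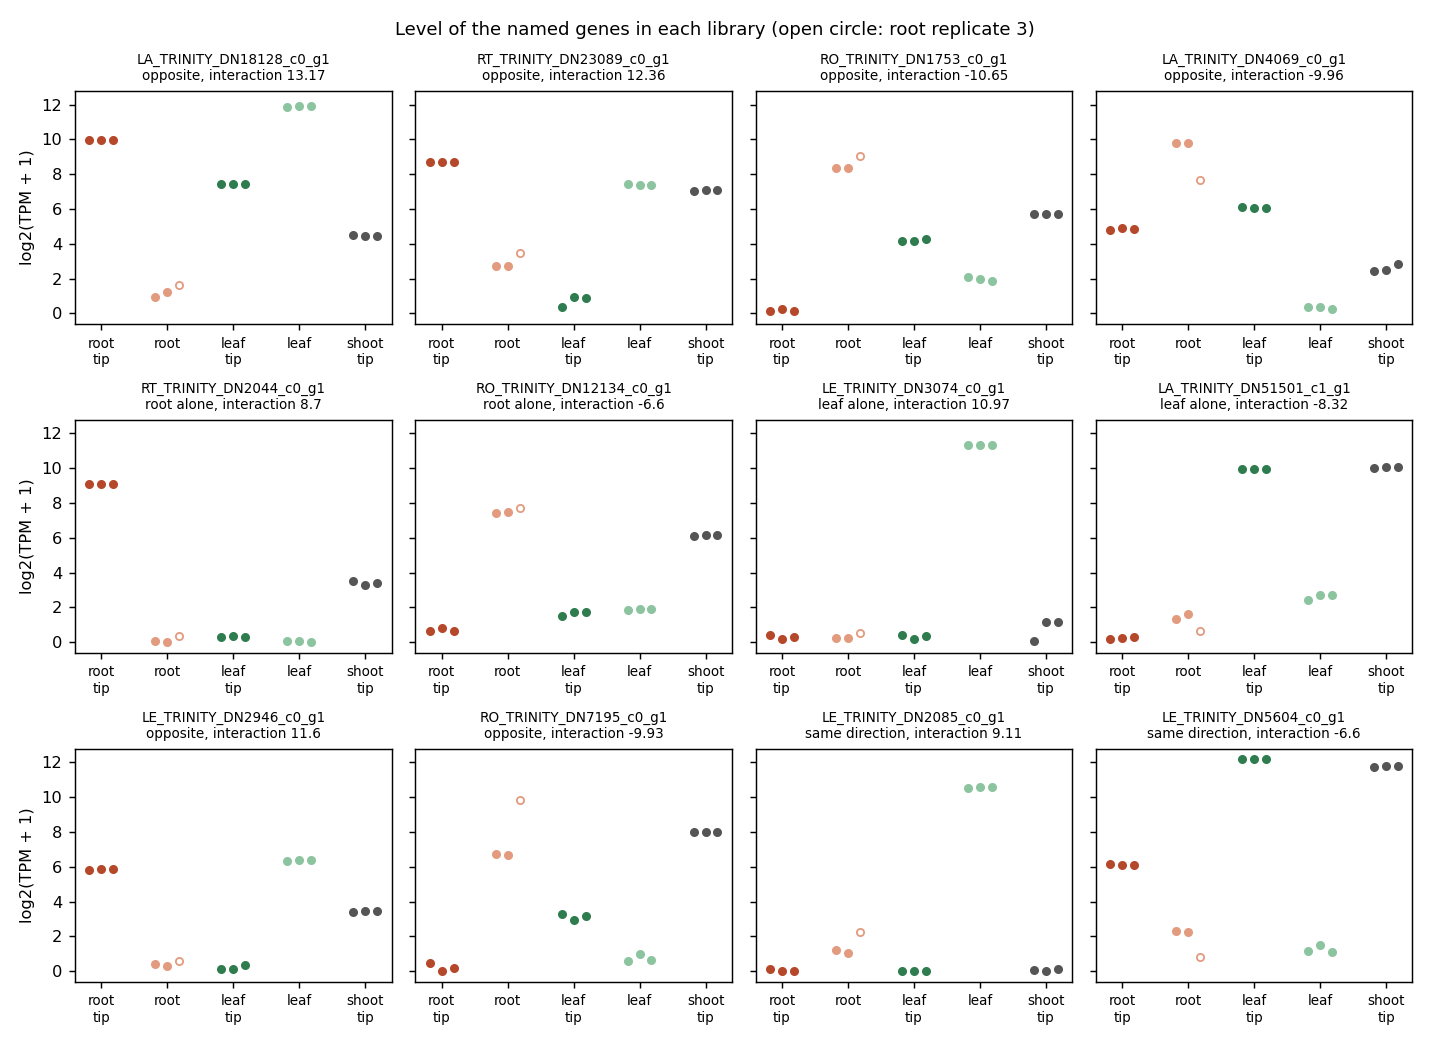
Level of 12 genes on log2(TPM + 1) in every library of root tip, root, leaf tip, leaf and shoot tip, 1 point per library, with root replicate 3 as an open circle. The panel titles give the pattern and the interaction; LA_TRINITY_DN18128_c0_g1 (13.17) is high in root tip and leaf, and RO_TRINITY_DN1753_c0_g1 (-10.65) is highest in root and near 0 in root tip.

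For the 1961 root-biased genes called in root alone the median level was 13.2 TPM in root tip, 1.76 TPM in root, 4.46 TPM in leaf tip and 4.56 TPM in leaf. RT_TRINITY_DN2044_c0_g1 was the highest of those that met the naming rule given below. It had 551.64, 538.54 and 549.98 TPM in root tip, against 0.03, 0 and 0.28 TPM in root. It stayed under 1 TPM in every library of leaf tip (0.24, 0.3 and 0.22) and leaf (0.07, 0.05 and 0.02), so it was high in root tip and low in the other 3 tissues of the contrast. Its interaction was 8.7 (SE 0.13, limma adjusted p = 1e-12). Shoot tip had 9.45 ± 0.845 TPM (SD, n = 3).

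For the 1857 leaf-biased genes called in root alone, the median level was 1.42 TPM in root tip, 8.12 TPM in root, 1.01 TPM in leaf tip and 0.91 TPM in leaf. Root was the highest of the 4 tissues for 94.9% of them, which the pattern favours by its definition, and for 25.5% of all genes described. RO_TRINITY_DN12134_c0_g1 had 0.57, 0.75 and 0.57 TPM in root tip, against 171.58, 174.82 and 210.41 TPM in root. Leaf tip had 1.81, 2.37 and 2.32 TPM, against 2.67, 2.76 and 2.69 TPM in leaf. The interaction was -6.6 (SE 0.14, limma adjusted p = 1e-11). It was not a root-only gene because shoot tip had 69.05, 70.21 and 70.61 TPM.

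Genes called in leaf alone formed the largest group. The 1744 root-biased ones had medians of 7.18 TPM in root tip, 7.05 TPM in root, 2.94 TPM in leaf tip and 18.8 TPM in leaf. Leaf was the highest of the 4 tissues for 78.4% of them, which the pattern favours by its definition, and for 13.9% of all genes described. They held 4.28% ± 0.0069 of the leaf tip total, against 18.6% ± 0.083 of the leaf total (SD, n = 3 each). The highest of those that met the naming rule was LE_TRINITY_DN3074_c0_g1. It was under 1 TPM in every library of root tip, root and leaf tip, against 2579.09, 2577.48 and 2605.18 TPM in leaf. Its interaction was 10.97 (SE 0.14, limma adjusted p = 3.3e-13).

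The 3301 leaf-biased genes called in leaf alone were modest in level. Their medians were 2.4 TPM in root tip, 2.61 TPM in root, 7.72 TPM in leaf tip and 1.31 TPM in leaf. Leaf tip was the highest of the 4 tissues for 91.1% of them, which the pattern favours by its definition, and for 41% of all genes described. LA_TRINITY_DN51501_c1_g1 had the lowest interaction of those that met the naming rule. It had 0.14, 0.17 and 0.22 TPM in root tip, against 1.48, 2.1 and 0.55 TPM in root. Leaf tip had 1002.22, 1010.04 and 997.71 TPM, against 4.32, 5.46 and 5.58 TPM in leaf. Its interaction was -8.32 (SE 0.27, limma adjusted p = 3.7e-10), and -8.6 without root replicate 3, its lowest root library. The root difference was -0.96 (limma adjusted p = 0.00087), just short of the cutoff of 1. Its place among genes called in leaf alone is therefore marginal and holds for the fit with all 12 libraries.

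Other genes changed in the same direction in both organs but by different amounts. Genes higher in both tips were more often leaf-biased, with 363 root-biased and 941 leaf-biased. This order held with 284 and 630 genes under median-ratio scaling and 296 and 701 under quantile normalization. The 363 had median tip effects of 3.64 in root and 1.6 in leaf, and the 941 had 1.85 in root and 3.67 in leaf. Genes lower in both tips numbered 331 root-biased, with medians of -1.65 in root and -3.6 in leaf, and 199 leaf-biased, with -3.19 in root and -1.55 in leaf. The median interaction was 1.69 and -1.66 for the genes higher in both tips, and 1.64 and -1.47 for those lower in both. Median-ratio scaling raised the 331 to 547.

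Of the genes with a shared direction that met the naming rule, LE_TRINITY_DN5604_c0_g1 was the most leaf-biased. It had 70.7, 67.35 and 66.57 TPM in root tip, against 4.04, 3.7 and 0.76 TPM in root. Leaf tip had 4633.38, 4629.77 and 4641.63 TPM, against 1.22, 1.88 and 1.13 TPM in leaf. Both tips exceeded their organs without overlap, and the interaction was -6.6 (SE 0.44, limma adjusted p = 1.2e-07). Of the root-biased ones that met it, LE_TRINITY_DN2085_c0_g1 had the highest interaction. It had 0.07, 0 and 0 TPM in root tip, against 1.31, 1.1 and 3.7 TPM in root. This root difference of -1.47 lies between low levels, with root replicate 3 the highest library, so its place in this pattern rests on low values. Like LE_TRINITY_DN3074_c0_g1, the gene is among those listed almost only in leaf, which were not left out. It was listed at 0 in all 3 leaf tip libraries, against 1499.12, 1541.42 and 1541.79 TPM in leaf, so no fold is given for leaf.

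The remaining called genes, 650 root-biased and 1874 leaf-biased, were called in neither tip comparison. The fitted tip effects had opposite signs in all of them, which follows by definition where both are under 1 in size. The medians were 0.7 in root and -0.66 in leaf for the root-biased genes. The leaf-biased ones had -0.58 in root and 0.73 in leaf. The leaf-biased ones were also low in level, with medians of 0.972 TPM in root tip, 2.01 TPM in root, 2.06 TPM in leaf tip and 0.863 TPM in leaf. When the interaction and both tip comparisons were tested against the 2-fold minimum itself, 822 leaf-biased genes fell in this pattern. These can include genes whose tip comparison was called before and lost its call, so they are not a remainder of the 1874.

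**Figure D5:**
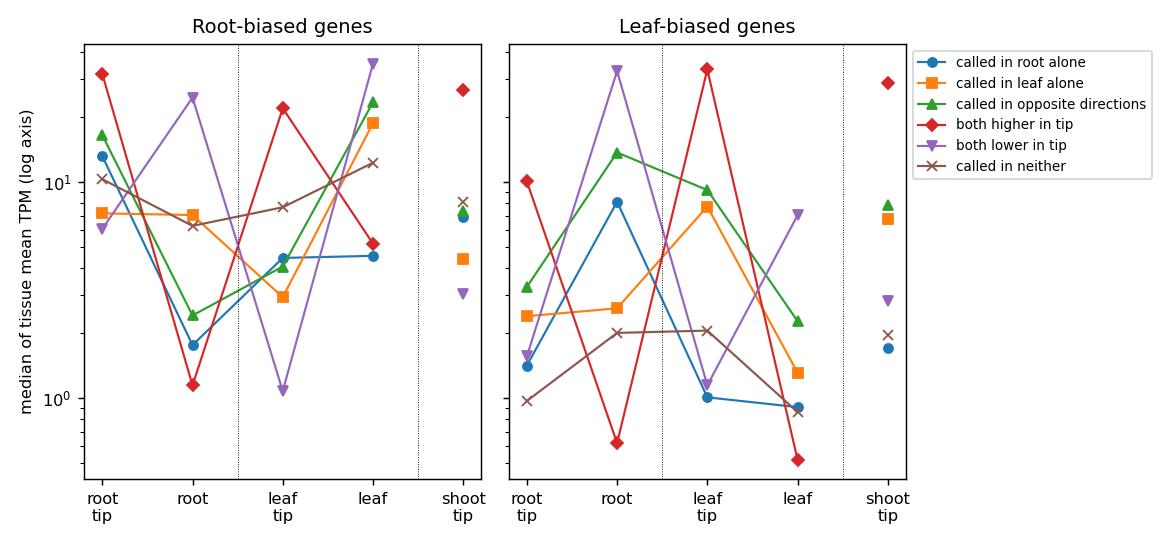
Median over genes of the tissue mean TPM (log axis) in root tip, root, leaf tip, leaf and shoot tip, for each pattern, with root-biased genes on the left and leaf-biased genes on the right. Root-biased genes of the opposite pattern peak in root tip (16.5 TPM) and leaf (23.5 TPM), leaf-biased ones in root (13.7 TPM) and leaf tip (9.2 TPM), and shoot tip took no part in the contrast.

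The same interaction can be read across organs, as the difference between the 2 tips minus the difference between the 2 mature parts. Root-biased genes were most often highest in leaf (2608 genes, 46.9%) or root tip (2216 genes, 39.9%). Leaf-biased genes were most often highest in leaf tip (5106 genes, 60.7%) or root (3147 genes, 37.4%). Over all genes described these shares were 13.9% for leaf, 19.6% for root tip, 41% for leaf tip and 25.5% for root. Since the contrast favours these tissues, the shares describe the genes and are no test.

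Among root-biased genes, 2158 (38.8%) were lower in root than in leaf with no call between the tips. Another 1460 (26.3%) were higher in root tip than in leaf tip with no call between the mature parts, and 390 (7.02%) had both calls. Over all genes described these shares were 8%, 5.71% and 1.06%. Among leaf-biased genes, 2596 (30.8%) were lower in root tip than in leaf tip alone, 2188 (26%) were higher in root than in leaf alone, and 282 (3.35%) had both, where all genes described had 8.82%, 8.68% and 0.768%. No call in either was found for 510 root-biased (9.18%) and 2711 leaf-biased genes (32.2%), against 55.1% of all genes described. Over all tested genes, root tip exceeded leaf tip in 14.2% and fell below it in 13.7%, while root exceeded leaf in 18.9% and fell below it in 13.2%. These comparisons share their libraries with the interaction, which is the difference between them. A gene with both calls in opposite directions therefore passes the interaction cutoff of 1 by definition, and the shares are no test.

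Shoot tip, which the contrast did not use, was set beside the 4 tissues by taking the one whose mean log2(TPM + 1) was nearest. For leaf-biased genes the nearest was leaf tip in 61.4%, root in 14.3%, root tip in 14% and leaf in 10.3%. For root-biased genes it was leaf tip in 38.2%, root tip in 28.4%, root in 17.1% and leaf in 16.3%. Over all genes described it was leaf tip in 50.6%, root tip in 22.7%, leaf in 14% and root in 12.6%. The share was highest, at 91.7% for leaf tip, among the 941 leaf-biased genes that were higher in both tips, and their median level was 28.8 TPM in shoot tip, 33.3 TPM in leaf tip and 10.1 TPM in root tip. Leaf tip was the highest of the 4 tissues for 96.8% of these genes, which their pattern favours. For the 363 root-biased genes higher in both tips, leaf tip was also the most frequent nearest tissue, at 62%. LA_TRINITY_DN51501_c1_g1, which was marginally in the pattern called in leaf alone, was also close to its leaf tip level, at 1051.06, 1064.16 and 1062.22 TPM in shoot tip. Among the root-biased genes of the opposite pattern the shares were more even, at 34.7% for leaf tip, 26.8% for root tip, 21.9% for root and 16.6% for leaf.

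Each identifier starts with one of the tissue codes of the columns, and this prefix also went with the direction. Among root-biased genes 28.4% carried the root tip prefix and 27.9% the leaf prefix, where all genes described had 18.8% and 14.5%. Among leaf-biased genes 31.6% carried the leaf tip prefix and 28.5% the root prefix, where all genes had 25.1% and 20.9%. The part of the prefix in these results was not tested.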

How the data were processed

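Per the submitters' processing notes, RSEM 1.3.2, Bowtie2 2.3.4.3 and Trim Galore 0.5.0 were used; their settings and the transcript reference are not given in the sources used here. The deposited values are TPM, which the authors scaled to a fixed total per library (column sums from 999999.03 to 1000000.65), so depth, counting intervals and detection floors are unknown. The members and the lists of patterns were chosen with earlier results of these data known.

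Columns were matched through the sample descriptions. The 3 leaf columns match the leaf group and no single sample, so they are called replicates a, b and c. Genes at 1 TPM or more in 3 of the 12 libraries (37625) entered a limma 3.58.1 fit (R 4.3.3) on log2(TPM + 1), with 1 mean per tissue, an intensity trend and 8 residual degrees of freedom. The pseudocount of 1 understates changes of low genes. Adjusted p-values are Benjamini-Hochberg values over all 37625 genes, and calls also needed an absolute log2 value of at least 1. Among genes called with the same sign under 3 scalings and without root replicate 3 (10606), those at 10 TPM or more in 1 tissue and without overlap in each called comparison could be named. Named were the 2 highest and 2 lowest interactions, then the highest and lowest remaining in each of 4 patterns. The fit was tested on simulated data. Tables and figures were made with Python 3.11.15, pandas 2.3.3 and matplotlib 3.10.9. Alternatives were other pseudocounts, filters, scalings, weights and call rules, a replicate block, all 15 libraries, and each library left out in turn.

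Sequences were not used here, since no table pairs them with these identifiers.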

Additional observations from a re-analysis of the deposited data

Results flagged for a closer look

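The tip effect of each named gene differed between root and leaf by the interaction test itself. On the log2(TPM + 1) scale the values were 13.17 for LA_TRINITY_DN18128_c0_g1, 12.36 for RT_TRINITY_DN23089_c0_g1, 11.6 for LE_TRINITY_DN2946_c0_g1, 10.97 for LE_TRINITY_DN3074_c0_g1 and 8.7 for RT_TRINITY_DN2044_c0_g1. LE_TRINITY_DN2085_c0_g1 had 9.11, which is no fold because its leaf tip libraries are listed at 0. In the negative direction they were -10.65 for RO_TRINITY_DN1753_c0_g1, -9.96 for LA_TRINITY_DN4069_c0_g1, -9.93 for RO_TRINITY_DN7195_c0_g1 and -8.32 for LA_TRINITY_DN51501_c1_g1. RO_TRINITY_DN12134_c0_g1 and LE_TRINITY_DN5604_c0_g1 each had -6.6. Single values were not tested for outlying samples, since each group has 3 libraries.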

How the results depend on the processing

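All 12 named genes kept their direction and their call in the 298 values from alternatives that included them. Part of this was fixed beforehand. The naming rule required the call under median-ratio scaling, under quantile normalization and without root replicate 3. Keeping root-only genes or leaving out leaf-only genes reuses the values of the main fit. The 13972 calls became 6713 with a pseudocount of 5 (3326 root-biased, 3387 leaf-biased), 7594 with a mean of at least 5 TPM (3789 leaf-biased, 50.1% root-biased) and 7816 with limma's treat against a 2-fold minimum (3989 leaf-biased). The 751 opposite calls became 1910, 289 and 380 with a pseudocount of 0.1, a pseudocount of 5 and treat. With a pseudocount of 0.1 the interactions of 4-fold or more turned to 3769 root-biased and 4878 leaf-biased. The root-biased share was 56.8% under median-ratio scaling and 52.7% under quantile normalization, against 39.8% as deposited. Leaving out 1 library gave 13688 to 14665 calls, with 14665 without root replicate 3. The replicate block, for root tip, root and leaf tip only, gave 13979 calls. The main fit had no such block because no stated method uses one. Deviations from the tissue means correlated across genes with r of -0.0194 to 0.0227 between same-numbered libraries. Between differently numbered ones r was -0.0295 to 0.0278. Of 350 counts of patterns under alternatives, 307 stayed within 1.5 times.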
